A study of Mus musculus with 18 samples.

Results

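The baseline difference between liver and kidney was described in mice without the cyclin E1 transgene: 3 libraries of control liver against 3 of control kidney, out of the 18 libraries and 6 groups of the series. Members were chosen by label and by a filter on low counts alone, and 15153 of the 24062 genes in the table passed that filter. The study itself asked what overexpressed Ccne1 does in liver, kidney and lung, and these controls show how 2 of its 3 tissues differ before that question is put. RNA was taken from whole tissue.

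Both groups compared are called TA. They carry the reverse tetracycline transactivator (rtTA), a protein that switches on tet-controlled genes in the presence of doxycycline, with no tet-controlled gene to act on. All were of C57BL/6 background, received doxycycline starting at 3 weeks of age and were 4 months old when killed, so every control had been given the drug as well. In a second pair of groups, CCNE-TA, the mice carried rtTA together with a tet-inducible Ccne1; their liver and kidney served here as a check in libraries that the control comparison does not use. The labels give neither the sex, nor the promoter that drives rtTA, nor which mouse gave which tissue. Nothing in them says that replicates are separate animals, so p values measure the spread between these libraries.

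Hepatocytes make up most of the liver. They secrete the proteins of blood plasma, turn ammonia into urea, make bile acids and glucose, and oxidise drugs and toxins. The kidney filters plasma through the podocyte slit diaphragm and then recovers water, salts, sugars, amino acids and phosphate along the nephron. The proximal tubule, the thick ascending limb, the distal convoluted tubule and the collecting duct each carry their own set of transporters for that work. Glucose production, ammonia handling and drug transport are tasks that the 2 organs share, often with different members of the same gene families.

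Total counts were 38552888 to 61954486 in the liver libraries and 20697868 to 43202066 in the kidney libraries. A count of 3 corresponded to 0.0667 to 0.116 CPM in liver and 0.0491 to 0.0904 CPM in kidney, where CPM are counts relative to library size after scaling by trimmed mean of M values (TMM). Liver counts were the more concentrated: the 100 most abundant genes held 44.3% to 45.7% of them, against 24.6% to 27.3% in kidney, and 139 to 160 genes made up 50% of the counts in liver against 575 to 789 in kidney. The TMM factors accordingly were 0.663 to 0.727 in liver and 1.36 to 1.61 in kidney. Spearman correlations across genes were 0.963 to 0.976 within liver, 0.945 to 0.968 within kidney and 0.438 to 0.507 between the tissues.

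The libraries were not balanced for sex. Xist, the RNA of the inactive X chromosome, stood at 561, 0.376 and 0.310 CPM in liver TA 1, 2 and 3 against 732, 844 and 1.84 CPM in kidney TA 1, 2 and 3. The Y-linked gene Ddx3y was at 0, 64.5 and 70.2 CPM in the same liver libraries and at 0.0601, 0 and 13.7 CPM in the kidney libraries. By these genes 1 of 3 liver libraries and 2 of 3 kidney libraries are female, and liver TA 2 and kidney TA 2 cannot come from the same mouse although they share a number. Each tissue thus holds libraries of more than 1 mouse. Results that move with sex are therefore given with each library's value.

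Of the 15153 genes tested, 10215 (67.4%) differed between the tissues at an adjusted p under 0.05, 4845 (32%) with higher values in liver and 5370 (35.4%) with higher values in kidney. At a difference of at least 4-fold the order was more uneven, with 1565 genes (10.3%) higher in liver and 2893 (19.1%) higher in kidney. At 16-fold or more there were 637 (4.2%) and 1371 (9.05%). The libraries of the tissues did not overlap for 11194 genes (73.9%). These shares are the background against which every list below should be read, together with a median log2 fold change (liver minus kidney) of -0.08 over all tested genes and a median absolute change of 1.10. The split between the directions rests on scaling: of all calls 47.4% were higher in liver with TMM, 35.9% with upper quartile scaling, 16% with total counts alone and 57% after offsets for transcript length and GC content. Total counts alone moved the median of all genes to -1.16. Without liver TA 1, which held more kidney signal than the other liver libraries as described further on, 9760 genes were called.

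**Figure D1:**
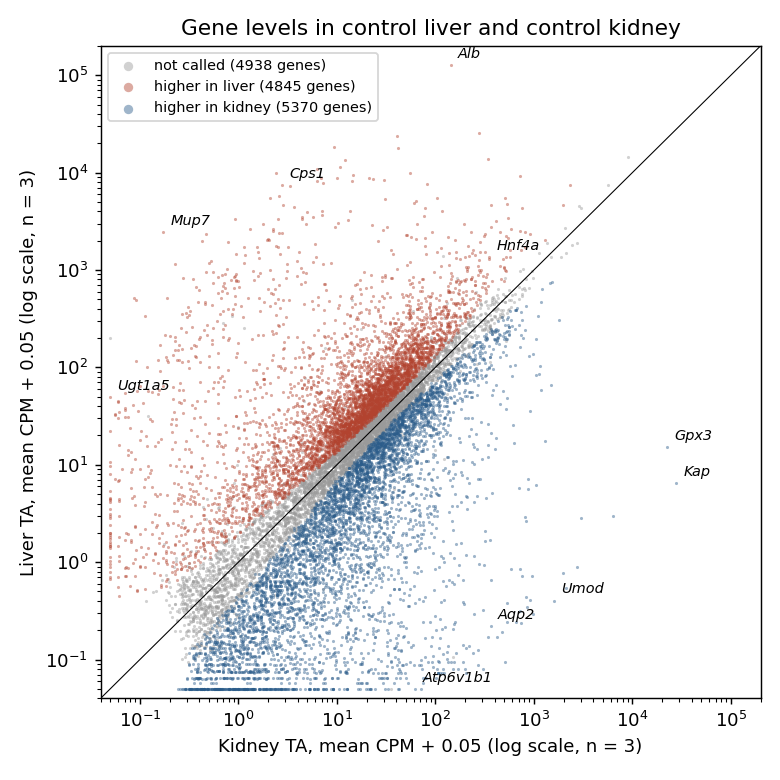
Mean level of each tested gene in 3 control kidney libraries (horizontal axis) and 3 control liver libraries (vertical axis), in CPM plus 0.05 on log scales, with genes called higher in liver in red, higher in kidney in blue and not called in grey. The cloud of 4845 red genes reaches higher absolute levels, up to Alb, while the 5370 blue genes spread further along the lower edge, where liver values are at or near 0.

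Among genes that reached 32 CPM in one tissue with no overlap, the largest fold in the liver direction belonged to Mup7, a major urinary protein that carries pheromones (chromosome 4, 60066469 to 60070475, minus strand of mm10). It stood at 5.11, 5506 and 1888 CPM in liver TA 1, 2 and 3 against 0.210, 0.0327 and 0.121 CPM in kidney TA 1, 2 and 3 (log2 fold change 14.42 ± 3.18 SE, adjusted p = 0.0109). The liver library with the female signature, TA 1, was far below the other two, and the adjusted p was 0.057 without kidney TA 2 and 0.0633 without kidney TA 3. With limma-voom it was 0.251. Ugt1a5, which attaches glucuronic acid to small lipophilic substrates, was at 72.0, 52.7 and 23.5 CPM in liver and had no count in any kidney library, so that it was at least 645-fold higher in liver. The protease inhibitor Serpina1e stood at 1009, 19198 and 9224 CPM in liver against 2.86, 2.37 and 1.93 CPM in kidney (adjusted p = 0.000154), and Cyp2c29, a drug-oxidising cytochrome P450, at 1761, 4213 and 4107 against 0.872, 0.785 and 0.964 CPM. Serpina1e and Cyp2c29 too were lowest in liver TA 1.

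In the kidney direction the largest fitted folds came from genes with no count in liver. Atp6v1b1, a subunit of the proton pump of acid-secreting intercalated cells, was at 47.8, 77.1 and 63.2 CPM in kidney TA 1, 2 and 3 and at 0 in every liver library, at least 636-fold higher. The same held for Psca, a surface antigen of epithelial cells (45.3, 40.8 and 42.6 CPM, at least 435-fold), for Aqp6, an intracellular channel of intercalated cells (34.9, 44.3 and 46.0 CPM, at least 424-fold), for the lipid transporter Abca13 (31.8, 33.2 and 33.0 CPM, at least 332-fold) and for the uncharacterised D630029K05Rik (40.8, 66.9 and 109 CPM, at least 732-fold). In none of these genes did a kidney library fall to 0. Slc12a1, the sodium, potassium and chloride cotransporter that loop diuretics block, stood at 684, 396 and 444 CPM in kidney against 0.133, 0 and 0 CPM in liver (-13.00 ± 0.76 SE, adjusted p = 2.49e-06). Pou3f3, a homeodomain factor of the developing nephron, had a single liver count and was 7193-fold higher in kidney (95% counting interval 1291 to 284114).

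Promoters of 4 of these genes are shown, with CG dinucleotides, the sites of DNA methylation, in capitals. Each runs from 250 bases before to 50 bases after the RefSeq start on GRCm38.p6, 5′ to 3′ on the gene's strand. Mup7 (chr4:60070426-60070725, minus) and Serpina1e (chr12:103956848-103957147, minus) are the liver examples, Atp6v1b1 (chr6:83742767-83743066, plus) and Pou3f3 (chr1:42695518-42695817, plus) the kidney examples. By fold Mup7 ranked 1 in liver and Atp6v1b1 ranked 2 in kidney. Serpina1e and Pou3f3, each ranked 9 in its direction, were picked after their sequences had been seen, past genes of larger fold that have a promoter.
Mup7: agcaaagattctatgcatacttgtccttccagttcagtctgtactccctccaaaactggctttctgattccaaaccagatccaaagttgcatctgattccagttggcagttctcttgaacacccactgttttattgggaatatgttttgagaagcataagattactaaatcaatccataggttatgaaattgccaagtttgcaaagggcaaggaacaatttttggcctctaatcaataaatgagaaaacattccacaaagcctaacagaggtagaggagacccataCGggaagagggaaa
Serpina1e: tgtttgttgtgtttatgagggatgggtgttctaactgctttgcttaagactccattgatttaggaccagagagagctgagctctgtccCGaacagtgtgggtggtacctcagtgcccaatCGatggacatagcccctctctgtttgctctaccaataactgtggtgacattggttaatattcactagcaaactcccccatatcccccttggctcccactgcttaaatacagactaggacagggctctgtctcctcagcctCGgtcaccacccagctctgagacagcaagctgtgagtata
Atp6v1b1: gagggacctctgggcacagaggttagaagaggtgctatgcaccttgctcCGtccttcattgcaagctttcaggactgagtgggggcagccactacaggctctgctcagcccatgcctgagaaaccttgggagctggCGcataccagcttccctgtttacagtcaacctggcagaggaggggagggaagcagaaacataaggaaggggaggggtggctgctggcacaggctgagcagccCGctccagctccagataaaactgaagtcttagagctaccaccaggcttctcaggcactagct
Pou3f3: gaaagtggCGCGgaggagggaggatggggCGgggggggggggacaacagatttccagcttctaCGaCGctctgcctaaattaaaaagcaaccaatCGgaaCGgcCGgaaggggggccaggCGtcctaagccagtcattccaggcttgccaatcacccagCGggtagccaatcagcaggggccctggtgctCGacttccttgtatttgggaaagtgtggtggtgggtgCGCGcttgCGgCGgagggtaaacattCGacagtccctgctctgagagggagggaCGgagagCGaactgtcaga

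The 4 promoters hold 1, 3, 3 and 18 CG dinucleotides in this order, against a median of 7 over all 32851 RefSeq promoters of the same length. Among the 9 reported genes of largest fold in liver that have exactly 1 promoter in the table, the number ran from 1 to 4, and all 9 lay below that median. Mup7, Mup9, Mup14 and Mup21 belong to 1 family, as do Saa1 and Saa2, and share much of their sequence. The 9 are therefore not independent. Among the 7 of kidney it ran from 0 to 19, and 5 lay below. Of 4 motifs searched on both strands, GTTAAT (a motif of some homeodomain factors), CAAAGTCCA (an HNF4 site), TATAAA (1 form of the TATA box) and TTGCGCAA (a C/EBP site), Serpina1e held GTTAAT from position -78 and Cyp2c29 held TATAAA from position -19. No other promoter of these 16 held any of these exact sequences, and other forms of the TATA box were not searched. Over all promoters the shares were 7.1%, 0.475%, 13.6% and 0.183%. The same comparison over the larger sets is void, because only 73.8% of the genes at least 16-fold higher in liver and 74.8% of those in kidney have a promoter in the table (78.9% of all tested genes), under the 80% required here.

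The secreted proteins of plasma were higher in liver throughout. All 28 tested plasma carriers and apolipoproteins, 19 protease inhibitors and 38 complement and coagulation genes were called in that direction, with median log2 fold changes of 8.54, 9.19 and 8.47. Albumin, the main carrier protein of plasma (Alb, chromosome 5, 90460897 to 90476602, plus strand), took the largest share of liver counts at 6.40% to 10.8%. It reached 148133, 135767 and 95477 CPM in liver TA 1, 2 and 3 against 178, 122 and 128 CPM in kidney (9.79 ± 0.51 SE, adjusted p = 9.2e-07). Per transcript length it was at 90663 ± 24216 TPM (counts per transcript length scaled to a common total, mean ± SD, n = 3) in liver and 194 ± 67.2 in kidney, followed in liver by Apoa2, Apoe and Apoa1 of the lipoproteins. Serpina3k, an inhibitor of serine proteases, and transferrin (Trf), the iron carrier, came next. Summed over all 28 carriers, the level was 255919 to 295938 CPM in liver and 929 to 1042 CPM in kidney. Complement C3, the hub of the complement cascade, was at 19505, 14691 and 18922 CPM against 47.8, 46.2 and 30.3 CPM, and plasminogen (Plg), the precursor of the clot-dissolving protease, at 4217, 4893 and 4947 against 2.80, 2.24 and 3.32 CPM.

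Acute phase proteins, which hepatocytes release in inflammation, were also higher in liver for 17 of 17 genes (median 8.77), with some members far apart among the liver libraries. Saa1, an acute phase apolipoprotein, stood at 224, 86.0 and 6747 CPM in liver TA 1, 2 and 3 against 0.601, 0.229 and 0.422 CPM in kidney (12.49 ± 2.61 SE, adjusted p = 0.00851). Its neighbour Saa2 was at 62.0, 21.7 and 5903 CPM in the same liver libraries and 0.361, 0.442 and 0.332 CPM in kidney (12.34 ± 3.20 SE, adjusted p = 0.0202). Liver TA 3 was the highest library for both genes and liver TA 2 the lowest. Without kidney TA 3 the adjusted p of Saa1 was 0.055, and that of Saa2 was 0.0728 to 0.096 without one of the kidney libraries. With limma-voom these were 0.0637 and 0.217. Other members were more even: haptoglobin (Hp) was at 7643, 5090.0 and 13566 CPM in liver and 24.2, 21.8 and 17.4 in kidney, and the iron hormone hepcidin (Hamp) at 1116, 469 and 1384 CPM in liver against 2.64, 1.68 and 1.75 CPM in kidney. Lcn2, an iron-binding defence protein that is also read as a marker of tubule injury, followed the same libraries with 245, 11.8 and 385 CPM in liver against 4.57, 8.64 and 4.40 CPM in kidney (5.18 ± 1.34 SE, adjusted p = 0.019). Its adjusted p was 0.0548 without liver TA 3 and 0.0635 to 0.0871 without one of the kidney libraries, and 0.118 with limma-voom.

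**Figure D2:**
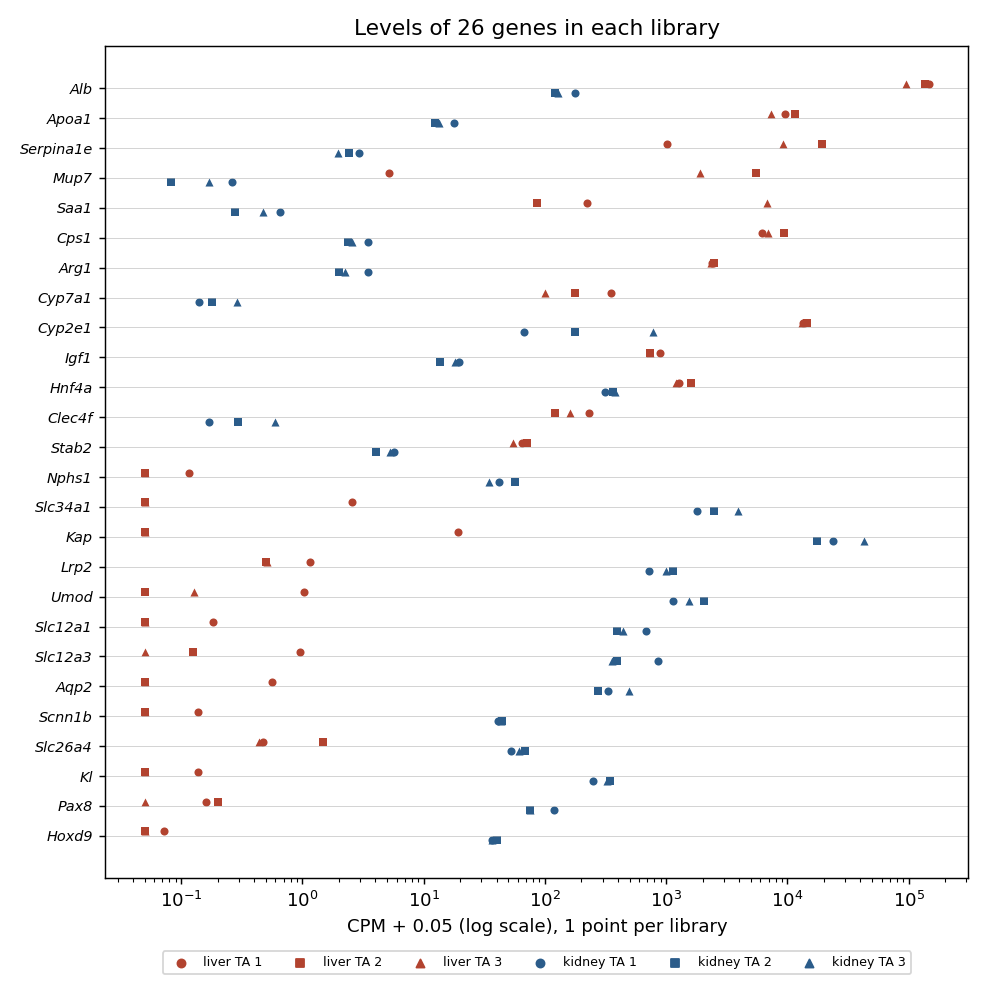
Level of genes named in the text in each control library, in CPM plus 0.05 on a log axis, with liver in red and kidney in blue and the library number given by the symbol (circle 1, square 2, triangle 3). Most genes form 2 tight groups, while Mup7 and Saa1 spread over the liver libraries and the kidney genes Kap, Slc34a1 and Umod are found in liver TA 1 but not in liver TA 2.

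Of 14 tested genes of the urea cycle and ammonia disposal, 13 were higher in liver and none in kidney (median 4.41). Cps1, which makes carbamoyl phosphate from ammonia, stood at 6227, 9336 and 6892 CPM in liver against 3.43, 2.31 and 2.50 CPM in kidney (11.41 ± 0.45 SE, adjusted p = 3.65e-07). Otc, Nags and arginase 1 (Arg1) showed log2 fold changes of 10.12 ± 0.38, 8.59 ± 0.36 and 9.89 ± 0.40 (SE). Asl, the lyase that releases arginine, differed less, with 1097, 1136 and 989 against 156, 242 and 249 CPM (2.32 ± 0.26 SE). The partner of Asl, Ass1, was listed at only 7 to 22 counts in every library, and was not called (adjusted p = 0.354, or 0.0241 with total counts only). Of 34 genes of amino acid breakdown 29 were higher in liver and 1 in kidney (median 2.39). The first enzymes of tryptophan and tyrosine breakdown, Tdo2 and Tat, differed by 11.03 ± 0.55 and 10.24 ± 0.40. Hgd (1.83 ± 0.32) and Fah (1.12 ± 0.23), later steps of tyrosine breakdown, were present in both tissues, and Fah had an adjusted p of 0.859 with total counts as the only scaling. Gatm, which starts creatine synthesis, went the other way with 9.31, 6.70 and 7.51 CPM in liver against 143, 184 and 230.0 CPM in kidney (-4.56 ± 0.25 SE, adjusted p = 1.23e-06).

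In bile acid synthesis and transport 20 of 25 tested genes were higher in liver and 2 in kidney (median 3.70). Cyp7a1, the rate-limiting enzyme of the classic route, was at 353, 177 and 99.5 CPM in liver TA 1, 2 and 3 against 0.0902, 0.131 and 0.241 CPM in kidney (10.41 ± 0.69 SE, adjusted p = 9.11e-06). The uptake carrier Slc10a1 (9.99 ± 0.38) and the export pump Abcb11 (9.96 ± 0.63) of hepatocytes differed by a like amount. The kidney genes encode both subunits of the basolateral bile acid exporter. Slc51a had 2 liver counts in all and was 1852-fold higher in kidney (counting interval 513 to 15295), and Slc51b stood at 42.5, 38.4 and 23.3 CPM there against 0.0222, 0.151 and 0.155 CPM in liver (-8.46 ± 0.49 SE).

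Synthesis of cholesterol and fatty acids was higher in liver in 30 of 32 tested genes (median 2.96), with no gene higher in kidney. Scd1, which puts the first double bond into fatty acids, was at 3725, 6086 and 6779 against 596, 725 and 214 CPM (3.43 ± 0.50 SE), while the fatty acid synthase Fasn differed by 2.12 ± 0.30 and Acaca by 2.63 ± 0.19. In ketone body and fatty acid oxidation 21 of 28 genes were higher in liver and 1 in kidney (median 1.51), and the exception concerns the use of ketones. Oxct1, the enzyme that consumers of ketone bodies need, was at 6.82, 10.2 and 4.38 CPM in liver against 595, 1039 and 954 CPM in kidney (-6.92 ± 0.44 SE, adjusted p = 2.75e-06). The fatty acid binding protein Fabp1 (8.19 ± 0.51), the mitochondrial gatekeeper Cpt1a (2.04 ± 0.24) and the receptor Ppara (3.14 ± 0.28) were all higher in liver.

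Sugar metabolism was divided. Of 28 tested genes of glycolysis, gluconeogenesis and glycogen 15 were higher in liver and 7 in kidney (median 1.17). The glucose exporter Slc2a2 (2.99 ± 0.25) was a liver gene. Hexokinase 1 (Hk1, -4.13 ± 0.21), Pfkp (-2.95 ± 0.28) and Ldhb (-7.26 ± 0.60) were kidney genes. Among genes of glucose production, a task of both organs, G6pc and Pck1 did not pass the test. G6pc, the catalytic subunit of glucose-6-phosphatase, stood at 526, 200.5 and 191 CPM in liver against 82.0, 327 and 124 CPM in kidney (0.78 ± 0.60 SE, adjusted p = 0.283, or 0.0333 without kidney TA 2). Pck1, which commits oxaloacetate to gluconeogenesis, stood at 5975, 4319.7 and 3357 CPM in liver against 2935, 4042 and 1575 CPM in kidney (0.67 ± 0.39 SE, adjusted p = 0.157). It passed with Xist as a covariate (adjusted p = 0.0235) and with length and GC offsets (0.0257). Fbp1 of the same route was higher in liver with 1424, 1353 and 1832 against 124, 434 and 293 CPM (2.44 ± 0.43 SE, adjusted p = 0.00109).

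Of 27 pairs of related genes with a shared role, 13 had the first member higher in liver and the second higher in kidney, and no pair was called the other way round. In 3 pairs both were higher in liver, in 2 both in kidney, and in 9 a member was not called or not tested. Where textbooks name a liver form it had been listed first, so that the count describes how far these libraries follow that division. Pyruvate kinase split into Pklr (4.17 ± 0.28) and Pkm (-2.84 ± 0.20). Arginase 2 (Arg2), the mitochondrial form, was at 8.39, 26.6 and 2.02 CPM in kidney against 0.111, 0 and 0.232 CPM in liver, opposite to Arg1, with an adjusted p of 0.00338 that was 0.0675 with limma-voom. Hsd11b1, which activates glucocorticoids, was at 755, 895 and 755 CPM in liver against 67.3, 61.5 and 96.1 CPM in kidney. Hsd11b2, which inactivates them and so protects the mineralocorticoid receptor, was at 0.0889, 0 and 0 CPM in liver against 158, 241 and 205 CPM in kidney (-12.18 ± 0.56 SE, adjusted p = 5.82e-07). Mat1a and Mat2a, which make the methyl donor S-adenosylmethionine, had 10.37 ± 0.47 and -1.01 ± 0.22. Slc10a2, the bile acid carrier of absorptive epithelia, was the member of its pair that broke the pattern, at 21.3, 21.3 and 30.0 CPM in liver against 11.03, 9.08 and 4.76 CPM in kidney (1.54 ± 0.31 SE, adjusted p = 0.00207, or 0.285 with total counts only).

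**Figure D3:**
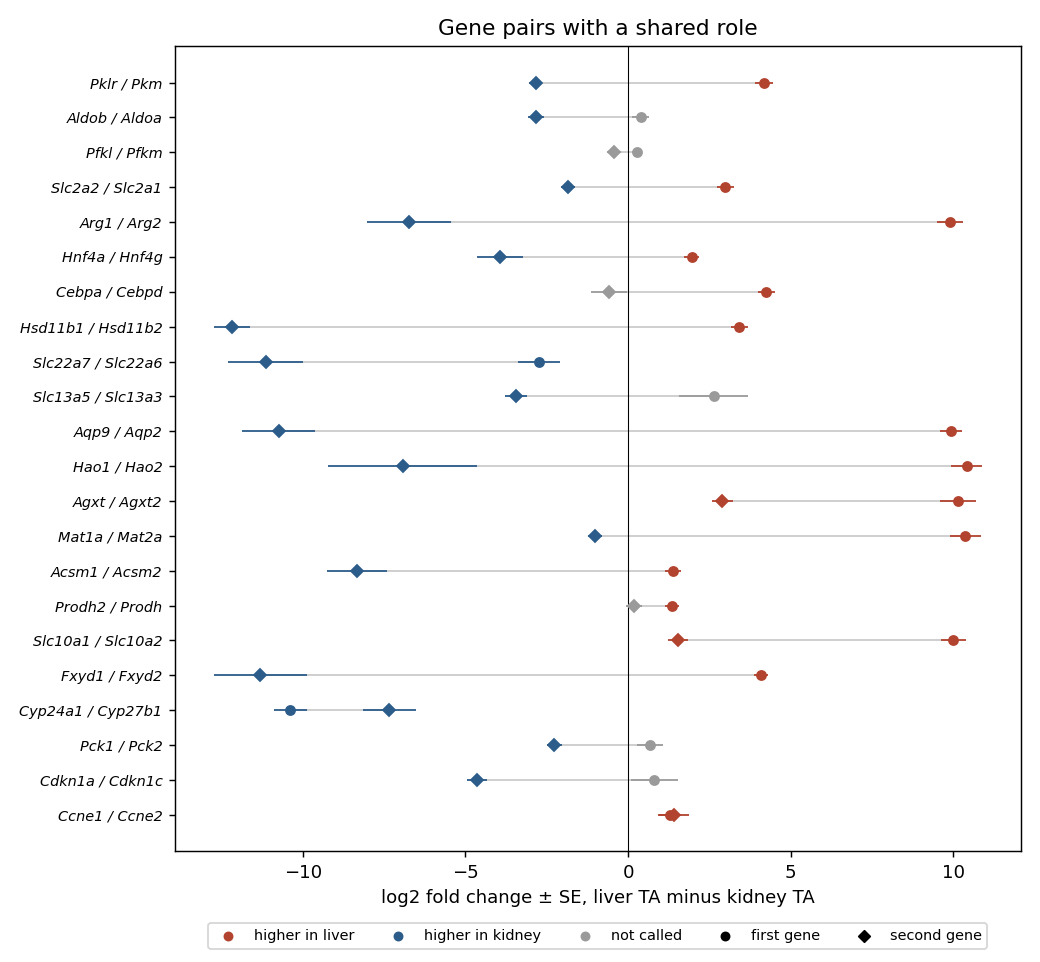
Log2 fold change (liver minus kidney, with its SE as a bar) of both genes of 22 of the pairs, circles for the first and diamonds for the second, red for higher in liver, blue for higher in kidney and grey for not called. In 10 of the 22 pairs shown the circle lies to the right of 0 and the diamond to the left with both called, and the fitted values of genes with few liver counts depend on the prior count. The pair Slco1b2 and Slco4c1 is left out because Slco4c1 was not tested.

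Enzymes that modify drugs and toxins were unevenly divided. Of 104 cytochrome P450 genes 76 were tested, 49 were higher in liver and 12 in kidney (median 4.35). Cyp1a2, which oxidises caffeine and aromatic amines, stood at 683, 1426 and 975 CPM in liver against 0.842, 0.589 and 0.723 CPM in kidney (10.49 ± 0.45 SE, adjusted p = 4.36e-07). The kidney members included Cyp27b1 and Cyp24a1, which activate and inactivate vitamin D, at 4.39, 9.59 and 2.68 CPM in kidney for Cyp27b1 and 14.2, 17.7 and 22.5 CPM for Cyp24a1, with 3 and 1 counts over all liver libraries. Their ratios were 209 (counting interval 71.5 to 1013) and 1754 (315 to 69287). Cyp2j11, an arachidonic acid epoxygenase of the tubule, was at 43.5, 107 and 91.2 CPM in kidney with 2 liver counts. Cyp4b1, an androgen-responsive kidney gene, was at 136, 366 and 1391 CPM in kidney TA 1, 2 and 3 against 14.5, 20.4 and 14.8 CPM in liver (-5.25 ± 0.92 SE), highest in the kidney library with the male signature. Among 17 tested glucuronosyltransferases 11 were higher in liver and 3 in kidney (median 8.33), and among 15 carboxylesterases 12 and 1 (4.76, or 4.47 with genes at 0 in kidney set to their bound). Reads of the Ugt1a, Cyp2c, Cyp2d, Serpina1 and Mup families can fall on near-identical neighbours, so that the value of a single member is uncertain.

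Along the nephron, most markers of each segment were higher in kidney. Markers with no count in liver TA 2 and 3 passed the filter through their kidney counts, so their direction is a description. In whole tissue, fewer cells of a type and less RNA per cell cannot be told apart. Of 17 podocyte markers 15 were higher in kidney and 2 in liver (median -4.42). Nephrin (Nphs1), the backbone of the slit diaphragm, was at 41.5, 56.4 and 34.8 CPM in kidney with 3 counts in liver, a ratio of 1524 (counting interval 521 to 7389.6). The phospholipase Plce1 (1.76 ± 0.26) was 1 of the 2 exceptions, with an adjusted p of 0.0567 with total counts only.

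Of 46 tested proximal tubule markers 40 were higher in kidney and 2 in liver (median -8.74). Of the 47 listed, 22 and 20 had no count in liver TA 2 and 3. The phosphate carrier Slc34a1 stood at 1792, 2482 and 3918 CPM in kidney against 2.53, 0 and 0 CPM in liver (-11.55 ± 2.08 SE, adjusted p = 0.00387). Megalin (Lrp2), the receptor that recovers filtered protein, was at 721, 1140.1 and 999.7 against 1.11, 0.452 and 0.465 CPM (-10.41 ± 0.52 SE), and its partner cubilin (Cubn) at 165, 231 and 192 against 0.511, 0.226 and 0.232 CPM. The glucose carrier Slc5a2, the target of gliflozin drugs, was at 79.5, 144 and 137 against 0.0889, 0 and 0 CPM. Kap, an androgen-regulated protein of the proximal tubule (chromosome 6, 133849851 to 133853762, minus strand), had the highest level per transcript length in kidney, 104269 ± 38850.4 TPM (SD, n = 3). Its CPM were 23595, 17429.9 and 42527 in kidney TA 1, 2 and 3 and 19.2, 0 and 0 in liver (-12.07 ± 3.19 SE, adjusted p = 0.02). Without kidney TA 2 and without kidney TA 3 that p was 0.0527 and 0.0643. Gpx3, the glutathione peroxidase that kidney secretes into plasma, followed with 18986, 25245 and 23121 CPM against 30.6, 9.71 and 5.27 CPM (-10.53 ± 0.87 SE, adjusted p = 1.38e-05). The 2 markers with the opposite direction are drug-metabolising enzymes of hepatocytes as well: Cyp2e1 was at 13401, 14551 and 13219 CPM in liver against 67.2, 177 and 775 CPM in kidney, and Cyp2j5 at 968, 1116 and 1035 CPM in liver against 223, 523 and 742 CPM in kidney. The adjusted p of Cyp2j5, 0.0382, became 0.0562 to 0.0853 without any one of the liver libraries and 0.0772 without kidney TA 2. It was 0.0669 with Xist as a covariate, 0.0504 with length and GC offsets, 0.107 with upper quartile scaling, 0.206 in a fit of all 18 libraries and 0.958 with total counts only.

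The thick ascending limb, which dilutes urine by pumping out salt, had 19 of 19 markers higher in kidney (median -10.36, or -10.04 with genes at 0 in liver set to their bound). In liver TA 2 and 3, 14 and 13 of these markers had no count. Uromodulin (Umod), the most abundant protein of normal urine, was at 1149, 2046 and 1558 CPM in kidney against 0.978, 0 and 0.0774 CPM in liver (-11.95 ± 1.34 SE, adjusted p = 0.000272). The potassium channel Kcnj1 was at 140.4, 161 and 149 against 0.0889, 0 and 0 CPM (-11.76 ± 0.49 SE). Cldn16, the claudin that lets magnesium pass between cells, had no count in liver and 6.49, 9.72 and 7.11 CPM in kidney, at least 78.8-fold more. For the distal convoluted and connecting tubule 13 of 16 markers were higher in kidney and 2 in liver (-6.98, or -5.53 with bounds). The thiazide-sensitive cotransporter Slc12a3 stood at 863, 391 and 357 CPM in kidney against 0.911, 0.0753 and 0 CPM in liver (-10.46 ± 1.28 SE, adjusted p = 0.000475). Calbindin (Calb1), which carries calcium through the cell, was at 118, 283 and 105 against 0.0889, 0 and 0 CPM (-11.92 ± 0.81 SE), and the calcium channel Trpv5 at 3.37, 5.33 and 1.75 CPM against 0, at least 35.3-fold.

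In the collecting duct 17 of 17 principal cell markers and 17 of 17 intercalated cell markers were higher in kidney, with medians of -9.95 and -7.87. In liver TA 2 and 3, 11 and 12 of the principal cell markers had no count, and 6 and 7 of the intercalated cell markers. Such genes passed the filter through their kidney counts, so their direction is a description. Aquaporin 2 (Aqp2), the water channel that vasopressin inserts, was at 333, 273 and 495 CPM in kidney TA 1, 2 and 3 against 0.511, 0 and 0 CPM in liver (-10.74 ± 1.11 SE, adjusted p = 0.000205). The vasopressin receptor Avpr2 was 1503-fold higher (counting interval 416 to 12411, 2 liver counts). Of the subunits of the epithelial sodium channel, Scnn1b had 41.2, 44.4 and 43.2 against 0.0889, 0 and 0 CPM (-9.95 ± 0.48 SE), while Scnn1a was present in both tissues at 108, 154 and 84.9 CPM in kidney against 31.3, 45.5 and 30.7 CPM in liver (-1.69 ± 0.26 SE). Pendrin (Slc26a4), the chloride and bicarbonate exchanger of one intercalated cell type, stood at 52.4, 68.4 and 61.5 against 0.422, 1.43 and 0.387 CPM. Foxi1, the factor that specifies intercalated cells, was at 15.3, 32.8 and 21.9 CPM with 3 counts in liver. Of 20 tested proton pump subunits 16 were higher in kidney and none in liver (median -1.36), 6 of them by 4-fold or more, against 19.1% of all tested genes. Those were led by the forms restricted to acid-secreting cells, Atp6v1b1, Atp6v1g3 (49.4, 92.8 and 83.2 CPM, 2 liver counts), Atp6v0a4 (-9.03 ± 0.41) and Atp6v1c2 (-8.85 ± 0.30).

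Hypertonicity genes of the medulla were less uniform, with 7 of 11 tested higher in kidney and 2 in liver (median -2.47). The urea channel gene Slc14a2 was at 178, 82.2 and 132 CPM in kidney and 0.156, 0 and 0 in liver (-10.81 ± 0.71 SE, adjusted p = 8.68e-06), and the inositol carrier Slc5a3 at 112, 102 and 59.5 CPM in kidney against 5.69, 11.7 and 3.56 CPM in liver (-3.71 ± 0.47 SE). The betaine carrier Slc6a12, which protects medullary cells from salt, was higher in liver, at 90.4, 139 and 110.3 against 16.7, 7.10 and 7.96 CPM (3.42 ± 0.36 SE, adjusted p = 7.1e-05).

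Transporters as a whole were divided. Of 320 tested solute carriers 100 were higher in liver and 148 in kidney (median -0.47). Among all tested genes these shares were 32% and 35.4%. Within them the organic ion carriers of the Slc22 family had 16 of 24 higher in kidney and 4 in liver (median -2.70). Among the 26 carriers of that family in the table, 9 and 11 had no count in liver TA 2 and 3. Those of them that were tested passed the filter through their kidney counts, so their direction is a description. The anion carrier Slc22a8 was at 929, 938 and 1043 CPM in kidney against 0.733, 0 and 0 CPM in liver (-11.70 ± 1.34 SE, adjusted p = 0.000329), and Slc22a6, which takes up para-aminohippurate, at 189, 248 and 600.4 CPM in kidney against 0.356, 0 and 0 CPM in liver. Of 10 tested aquaporins 3 were higher in liver and 7 in kidney, with the glycerol channel Aqp9 (9.92 ± 0.34) and Aqp8 (6.95 ± 0.48) on the liver side. Of 19 claudins 5 and 13 were called, with Cldn14 (6.46 ± 0.68) and Cldn3 (2.14 ± 0.27) in liver and Cldn10 (-10.78 ± 0.42) and Cldn4 (-7.05 ± 0.34) in kidney.

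**Figure D4:**
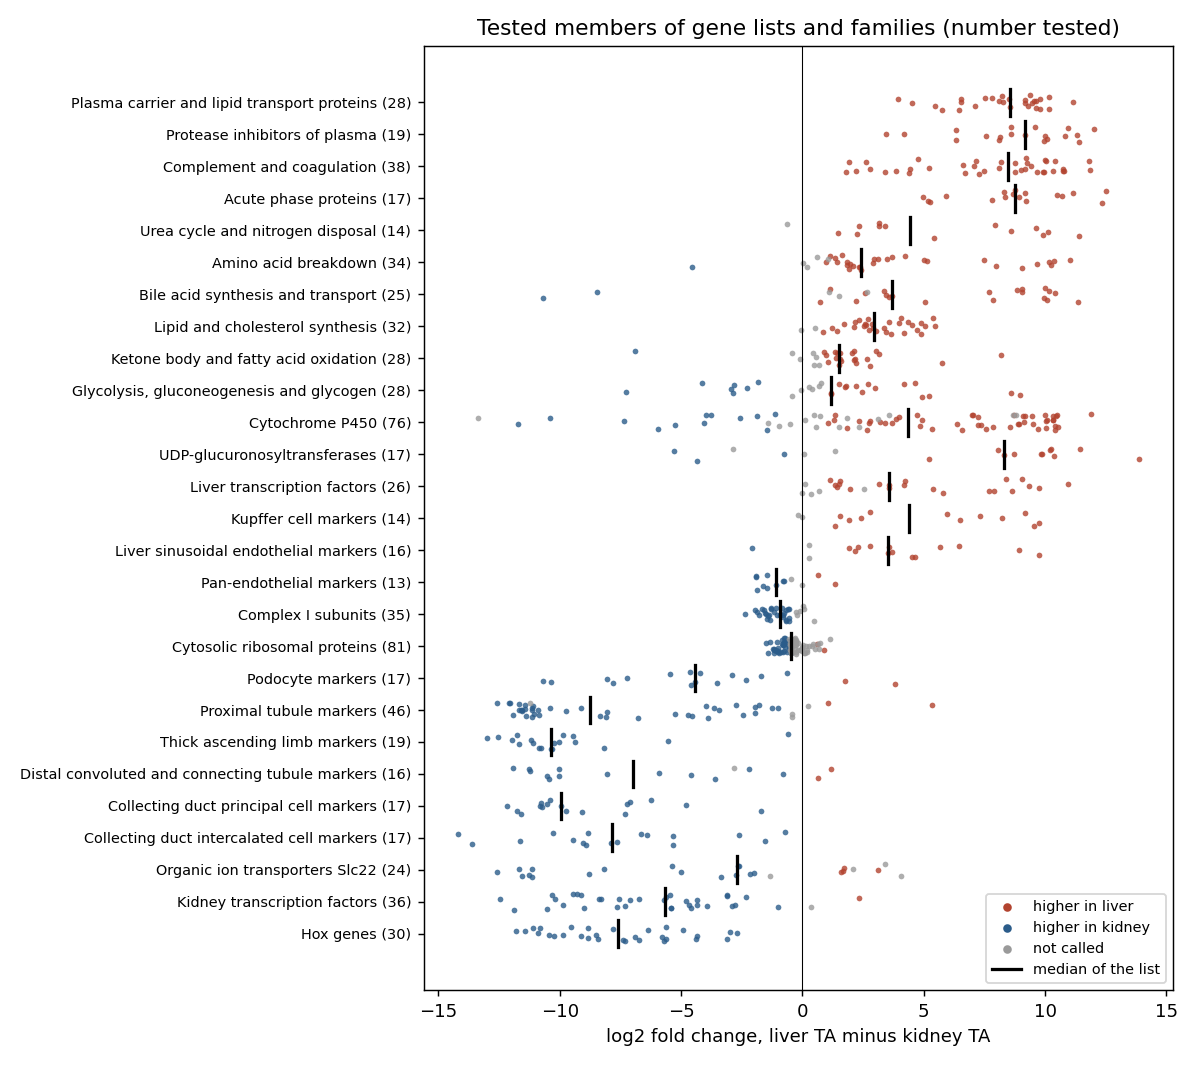
Log2 fold change (liver minus kidney) of the tested members of gene lists and families, with the number tested in brackets, genes called higher in liver in red, higher in kidney in blue and not called in grey, and a black bar at each median. The medians shown run from 9.19 for plasma protease inhibitors to -10.36 for the thick ascending limb, and ribosomal proteins sit near 0 with a median of -0.47 that turns to 0.10 after offsets for length and GC content. Not every list or family is shown, and the major urinary proteins (median 11.71) are left out.

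Hormone genes showed both organs as sources and targets. Of 19 tested liver hormones and receptors 15 were higher in liver (median 2.75). Igf1, the main mediator of growth hormone, was at 898, 736 and 742 CPM in liver against 19.5, 13.6 and 18.2 CPM in kidney (5.54 ± 0.27 SE, adjusted p = 7.25e-07), and Agt, the precursor of angiotensin, at 1160.3, 1218 and 949 against 116, 107 and 116 CPM (3.30 ± 0.23 SE). Of 21 kidney hormones and receptors 16 were higher in kidney and 5 in liver (median -5.76, or -5.05 with bounds). Among the 24 listed, 10 and 11 had no count in liver TA 2 and 3. Those of them that were tested passed the filter through their kidney counts, so their direction is a description. Klotho (Kl), the coreceptor of FGF23 in phosphate control, was at 247, 345 and 325 CPM in kidney against 0.0889, 0 and 0 CPM in liver (-12.79 ± 0.59 SE, adjusted p = 5.6e-07), and the vitamin D receptor Vdr at 117, 104 and 110.4 CPM in kidney against 0.267, 0 and 0.0774 CPM in liver (-9.61 ± 0.53 SE). The vasopressin receptor of the liver, Avpr1a, was at 35.0, 49.6 and 19.3 CPM in liver against 3.73, 3.88 and 4.07 CPM (3.15 ± 0.33 SE). The mineralocorticoid receptor Nr3c2, best known from the distal nephron, was also higher in liver, at 11.8, 7.68 and 6.20 CPM against 2.77, 2.13 and 1.69 CPM (1.97 ± 0.33 SE, adjusted p = 0.00075, or 0.0656 with total counts only). Erythropoietin (Epo) had 0 counts in liver and 5 in kidney over all libraries, and renin (Ren1) had no count in any, so neither could be compared.

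Transcription factors divided along the same line. Of 26 liver factors 21 were higher in liver and none in kidney (median 3.57). Of 36 kidney factors 34 were higher in kidney and 1 in liver (-5.66, or -5.55 with bounds). Among the 37 kidney factors listed, 12 and 15 had no count in liver TA 2 and 3. Those of them that were tested passed the filter through their kidney counts, so their direction is a description. Foxa3, a pioneer factor of endoderm, was at 84.7, 149.8 and 108 CPM in liver against 0.240, 0.180 and 0.241 CPM in kidney (9.03 ± 0.33 SE, adjusted p = 2.9e-07). Cebpa, a driver of hepatocyte metabolism, was at 459, 687 and 491 against 27.1, 33.9 and 25.5 CPM (4.24 ± 0.26 SE). Hnf4a, shared by hepatocytes and proximal tubule, differed less, at 1278, 1615 and 1196 against 316, 363 and 377 CPM (1.95 ± 0.24 SE, adjusted p = 0.000123). Pax8, needed to form the nephron, was at 118, 75.1 and 75.0 CPM in kidney against 0.111, 0.151 and 0 CPM in liver (-9.88 ± 0.48 SE, adjusted p = 7.81e-07), and Pax2 was 1303-fold higher in kidney (counting interval 361 to 10763, 2 liver counts). Bhlhe40, a repressor tied to the clock, was the kidney-list factor found higher in liver (235, 141 and 329 against 30.0, 62.2 and 46.1 CPM).

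Hox genes, which give cells their place along the body axis, were called in one direction. Of the 39 listed, 30 passed the filter and all 30 were higher in kidney (median -7.59, or -6.90 with genes at 0 in liver set to their bound). The filter let these genes pass through their kidney counts, since the whole family summed to 4.78 to 5.27 CPM in liver and to 553 to 749 CPM in kidney, and the direction of those that passed is a description. All clusters took part: 10 genes of Hoxa (chromosome 6, 52155590 to 52260880), 8 of Hoxb (chromosome 11, 96194316 to 96368256), 6 of Hoxc (chromosome 15, 102921103 to 103036852) and 6 of Hoxd (chromosome 2, 74668310 to 74765142). Per transcript length the highest in kidney were Hoxd8 at 96.9 TPM, Hoxb6 at 74.7, Hoxb2 at 55.7 and Hoxd9 at 47.9. Along the clusters the levels ended abruptly: groups 9 and 10 reached 7.23 to 47.9 TPM, group 11 at most 7.35 TPM, and no gene of groups 12 and 13 passed the filter. In liver Hoxb2 to Hoxb5 were the highest, at a mean of 0.626 to 0.684 CPM, while Hoxa6, Hoxa7 and Hoxc9 had no count.

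**Figure D5:**
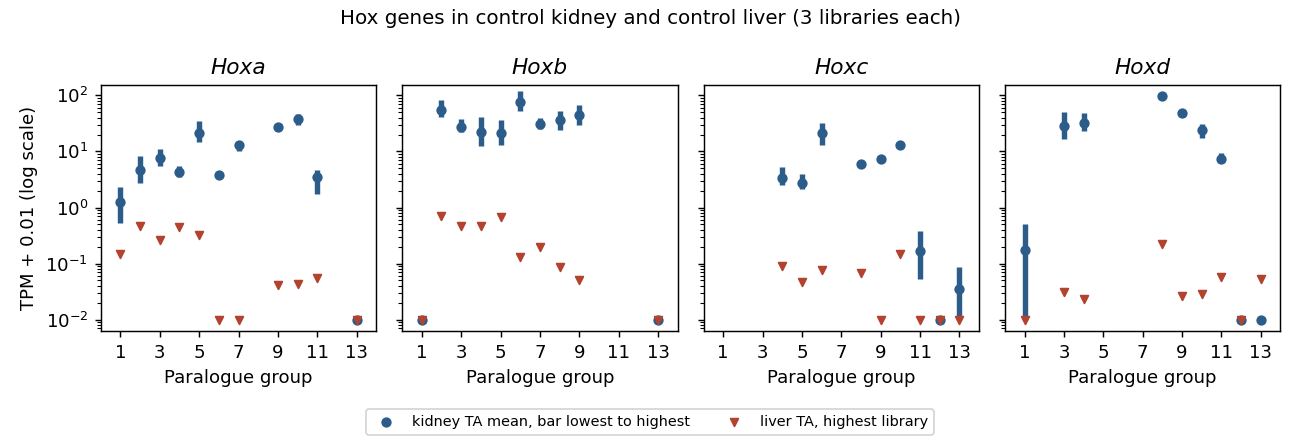
Hox genes by cluster and paralogue group, with the kidney mean as a blue point, the lowest to highest kidney library as a bar and the highest liver library as a red triangle, in TPM plus 0.01 on a log axis (3 libraries per tissue). Kidney levels lie mostly between 1 and 100 TPM up to group 11 and at or near 0 for groups 12 and 13, and the highest liver library stays under 1 TPM throughout.

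Cells that both organs contain in special forms were checked next. Of 16 sinusoidal endothelial markers 13 were higher in liver and 1, Cldn5, in kidney (median 3.55). Of 15 kidney endothelial markers 10 were higher in kidney and 3 in liver (-3.70). Clec4g, a lectin of the sinusoid, stood at 56.8, 69.4 and 66.8 CPM in liver against 0.120, 0.180 and 0.0603 CPM in kidney (8.91 ± 0.30 SE, adjusted p = 2.9e-07), and the scavenger receptor Stab2 at 64.3, 71.1 and 54.8 against 5.68, 3.97 and 5.24 CPM (3.68 ± 0.20 SE). Plat, the plasminogen activator, was at 247, 168 and 110.1 CPM in kidney against 0.644, 1.32 and 0.697 CPM in liver (-7.64 ± 0.45 SE, adjusted p = 2.39e-06), and Emcn, a mucin of capillaries, at 78.4, 93.5 and 101 CPM in kidney against 2.11, 5.08 and 2.13 CPM in liver. General endothelial markers differed little by comparison, with 2 of 13 higher in liver and 9 in kidney, none by 4-fold (median -1.08). Of 14 Kupffer cell markers 12 were higher in liver and none in kidney (median 4.37). Clec4f, the lectin that defines these resident macrophages, was at 231, 121 and 162 CPM in liver against 0.120, 0.245 and 0.542 CPM in kidney (9.16 ± 0.52 SE, adjusted p = 2.28e-06), and Vsig4, a complement receptor, at 64.7, 29.1 and 36.0 CPM in liver against 0.120, 0.0491 and 0 CPM in kidney. Markers of macrophages in general were split more evenly, with 9 of 17 higher in liver and 2 in kidney (median 1.69). Of 16 lymphocyte markers 1 was called, Cd4, in the liver direction (1.49 ± 0.55 SE, adjusted p = 0.0384). Without liver TA 2, liver TA 3, kidney TA 1 or kidney TA 3 its adjusted p was 0.178, 0.0528, 0.124 and 0.098, and it was 0.0862 to 0.518 with limma-voom, upper quartile scaling, a fit of all 18 libraries, Xist as a covariate or total counts only.

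The list of mesenchymal markers was divided, with 10 of 21 higher in liver and 8 in kidney. Among those higher in liver were the retinol esterase Lrat (25.3, 14.2 and 17.0 against 1.44, 2.70 and 2.71 CPM, 3.04 ± 0.33 SE), Reln (4.19 ± 0.47) and Colec11 (4.79 ± 0.26). Among those higher in kidney were the smooth muscle actin Acta2 at 62.9, 62.2 and 71.7 CPM in kidney against 8.02, 15.9 and 8.83 CPM in liver (-2.59 ± 0.27 SE), the smooth muscle myosin Myh11 (-2.56 ± 0.27) and the growth factor receptor Pdgfrb (-1.96 ± 0.16). Markers of bile duct cells went against their list, with 9 of 11 higher in kidney and 1, Sox9, in liver. They include keratins and junction proteins that tubule epithelium also makes, such as Krt7 (159, 192 and 135 CPM in kidney against 1.20, 1.66 and 1.63 CPM in liver), Epcam (98.1, 99.3 and 71.8 CPM in kidney against 2.38, 1.32 and 2.17 CPM in liver) and osteopontin (Spp1, 1198, 1583 and 779 CPM in kidney against 61.8, 56.3 and 59.3 CPM in liver).

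Genes that every cell uses differed by smaller amounts. Of 35 tested subunits of respiratory complex I 29 were higher in kidney and none in liver (median -0.93). The same held for 5 of 9 of complex III (-0.56), 11 of 13 of complex IV (-1.26) and 11 of 17 of ATP synthase (-0.80). Other sets did not lean to kidney. Complex II had 2 of 4 subunits higher in liver and 1 in kidney (0.29), and the tricarboxylic acid cycle 4 and 3 of 14 genes (0.017). Ndufa5 of complex I was at 287, 214 and 287 CPM in kidney against 45.1, 55.2 and 54.7 CPM in liver (-2.35 ± 0.20 SE, adjusted p = 1.6e-05), and Cox6c of complex IV at 775, 833 and 837 CPM in kidney against 212, 247 and 259.7 CPM in liver (-1.77 ± 0.21 SE). Cytosolic ribosomal proteins had 34 of 81 higher in kidney and 2 in liver, with a median of -0.47 that became 0.10 with offsets for length and GC content. Of 16 reference genes in common use 8 were called, 6 in liver and 2 in kidney. B2m, the light chain of class I antigen complexes, was at 2674, 2274 and 2337 CPM in liver against 395, 549 and 415 CPM in kidney (2.42 ± 0.26 SE, adjusted p = 5.67e-05). Gapdh was at 1399, 1505 and 1622 CPM in liver against 1707, 2129 and 2574 CPM in kidney with no call, although the libraries did not overlap (-0.50 ± 0.26 SE, adjusted p = 0.112, or 0.0278 without kidney TA 1). It was called higher in kidney with DESeq2 (adjusted p = 0.0213), upper quartile scaling (0.0153) and total counts only (0.000187), and its direction turned to 0.0168 with the length and GC offsets.

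The cyclin E genes, the subject of the study, were at low levels in these controls. Ccne1 stood at 3.93, 2.86 and 3.45 CPM in liver TA 1, 2 and 3 against 1.74, 1.37 and 1.05 CPM in kidney (1.30 ± 0.33 SE, adjusted p = 0.00771). Ccne2 was at 1.11, 1.32 and 0.697 CPM in liver against 0.301, 0.425 and 0.452 CPM in kidney (1.397 ± 0.48 SE, adjusted p = 0.0277). The libraries did not overlap for either gene, and both were higher in liver. With total counts as the only scaling the adjusted p of Ccne1 was 0.654. That of Ccne2 was 0.065 to 0.0888 without any single library other than liver TA 3, 0.544 with total counts only, 0.0714 with upper quartile scaling and 0.0551 with Xist as a covariate. Of 15 genes around cyclin E and its kinase 4 were higher in liver and 2 in kidney. Their kinase Cdk2 was at 14.8, 11.8 and 11.5 CPM in liver against 10.5, 9.55 and 9.37 CPM in kidney with no call (0.37 ± 0.19 SE, adjusted p = 0.11). It was called higher in liver with length and GC offsets (adjusted p = 0.0262) and higher in kidney with total counts only (0.0196). The inhibitor Cdkn1c was at 43.9, 72.6 and 44.0 CPM in kidney against 2.58, 2.30 and 1.51 CPM (-4.64 ± 0.30 SE, adjusted p = 3.02e-06), and Rb1, the pocket protein that cyclin E and its kinase inactivate, at 47.0, 35.3 and 30.6 against 14.1, 7.45 and 7.36 CPM (-1.96 ± 0.29 SE).

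Markers of neighbouring tissues moved with the comparison, and their part in the results was not tested. Of 7 tested skeletal muscle markers 6 were higher in liver, where the summed level of the 8 in the table was 16.6, 327 and 104 CPM in TA 1, 2 and 3 against 4.64 to 9.54 CPM in kidney. Pancreatic enzymes were found in liver TA 1 and TA 2, where Cela2a was at 42.8, 14.6 and 1.20 CPM in TA 1, 2 and 3 (kidney 0, 0.0164 and 0.181 CPM, with an adjusted p of 0.00926 that became 0.0531 without kidney TA 2 and 0.123 with limma-voom), and the sum of 16 markers was 31.1 to 348 CPM in liver and 55.1 to 102 CPM in kidney, with 3 to 9 of them at 0 in a liver library and 8 to 11 in a kidney library. Of 11 fat markers 9 were higher in kidney, among them Adipoq at 23.9, 17.5 and 7.75 CPM in kidney against 1.96, 1.09 and 1.01 CPM in liver. The sum of the fat markers was nonetheless higher in liver, at 5862 to 7476 CPM against 1827 to 4533 CPM, where the list holds Car3, at 609, 3115 and 2478 CPM in liver against 80.1, 78.3 and 33.6 CPM in kidney, and Pck1. Of 7 tested lung markers 4 were higher in kidney, with Sftpc, a surfactant protein, at 28.2, 8.10 and 6.30 CPM there and 1.4, 3.05 and 1.97 CPM in liver. The lung sum was 75.8 to 87.5 CPM in liver and 40.4 to 111 CPM in kidney.

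Traces of each organ were also sought in the other. The 95 genes with at least 1000 CPM in liver and at least 32-fold more there stood in kidney TA 1, 2 and 3 at a median of 0.16%, 0.118% and 0.139% of their liver level. Single genes ranged from 0.00133% for Mup7 in kidney TA 2 to 5.65% for Cyp2e1 in kidney TA 3. The 10 kidney genes chosen in the same way stood in liver TA 1 at a median of 0.104% of their kidney level, and at 0.00653% and 0.00776% in liver TA 2 and 3. Liver TA 1 therefore held more kidney signal than the other liver libraries, Kap at 19.2, 0 and 0 CPM among it, and how it came there was not tested. Low liver values of abundant kidney genes should be read with that library in view. For low kidney values of abundant liver genes the same holds in every kidney library, where the source of the signal was not tested.

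The same comparison was run in the CCNE-TA libraries, which share none with the controls. There 15276 genes were tested and 6372 (41.7%) were called, 2775 (18.2%) higher in liver and 3597 (23.5%) higher in kidney. That fit, on which the shares below rest, has no replicate block, and with the block 7156 genes were called. Of the 10215 genes called in the controls 10060 were tested in CCNE-TA, 9001 had the same direction and 5460 (53.5%) were also called in it. Only 35 were called in the opposite direction. Among genes at least 4-fold apart the share called again was 80.3% for liver (1256 of 1565) and 78.1% for kidney (2260 of 2893), with 2 and 0 called the other way. For single genes the values lay side by side as follows: Alb had a log2 fold change of 9.79 ± 0.51 in controls and 10.23 in CCNE-TA, Cps1 11.41 ± 0.45 and 10.03, Umod -11.95 ± 1.34 and -8.90, and Slc34a1 -11.55 ± 2.08 and -9.40. Nr3c2 had 1.97 ± 0.33 and -0.13 (adjusted p = 0.851 in CCNE-TA), and Slc6a12 3.42 ± 0.36 and 3.63 (adjusted p = 0.000186). The differences between the pairs of groups were not tested. Ccne1 is not set side by side, since CCNE-TA mice carry it as a transgene.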

How the data were processed

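RNA from whole liver and kidney (RNeasy columns, 100 to 200 ng) was made into TruSeq v2 libraries, which do not mark strand, per the labels' protocols. The deposited values are raw read counts per gene symbol, 1 column per library, which the authors made with TopHat2 2.0.14, Bowtie2 2.2.6, featureCounts 1.4.6 and mm10, per the submitters' processing notes. The treatment of reads with several alignments is not given in the sources used here. Genes with close copies such as Eno1, Ren1, Rpl26 and Ass1 had 0 to 22 counts per library. Low counts were mostly even (67.8% to 71.2% of those between 1 and 20), and the cause was not tested. The counting intervals (exact, 95%) treat every count as independent and cover counting error only.

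The 6 control libraries were fitted in edgeR 4.0.16 (R 4.3.3) with filterByExpr, TMM scaling and a robust quasi-likelihood F test, with Benjamini-Hochberg adjustment over all 15153 genes and a call at an adjusted p under 0.05. Log2 fold changes are liver minus kidney. The SE beside them was derived as the absolute log2 fold change over the square root of the F statistic, and was not fitted directly. For genes with no count in one tissue a lower bound was computed with 3 counts per library, and for genes with 1 to 3 counts the ratio with its counting interval is given. TPM use exon lengths of GENCODE M21, to which 98.35% of the symbols matched. Promoters are from RefSeq (GRCm38.p6). The main fit did not pair the control libraries by replicate number. Number 2 is no pair by the sex genes, and whether numbers 1 and 3 are pairs is not settled. In CCNE-TA the deviations of same-numbered libraries from the group means were correlated at 0.192, 0.56 and 0.215. They were not compared with those of different numbers, and no label gives a pairing.

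Alternatives were DESeq2 1.42.0, limma 3.58.1 (voom), other scalings and filters, a fit of all 18 libraries, a replicate block, Xist as a covariate, length and GC offsets, a test against 2-fold, and the libraries left out in turn. Named genes were those of largest fold, of highest TPM, and the first or most changed members of each list and family. Hox genes were also named by level after their values were seen. Members and lists were chosen with earlier results of these data known. The fit was also run on simulated data with kidney means in both groups and few changed genes. That setting cannot probe a contrast as wide as this one. Lung libraries were not used beyond the fit of all libraries. Some genes are not reported here.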

Additional observations from a re-analysis of the deposited data

Results flagged for a closer look

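Gapdh lay in opposite directions in the pairs of groups, with every liver library below every kidney library in the controls and above in CCNE-TA. Its log2 fold change (liver minus kidney) was -0.50 in controls (adjusted p = 0.112) and 0.27 in CCNE-TA (adjusted p = 0.463), and the difference between them was not tested.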

How the results depend on the processing

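Of the 157 genes named with a test, 136 kept their call and direction under each alternative, 16 lost the call under at least 1, and 5 changed direction. Those 5 were not called as reported: with total counts as the only scaling Cdk2 was at -0.71, G6pc at -0.25 and Pck1 at -0.41, and with length and GC offsets Ass1 was at 0.011 and Gapdh at 0.0168. The median of the ribosomal proteins was 0.10 with those offsets. With total counts only, 1840 genes were called higher in liver and 9694 higher in kidney, 869 and 4816 of them by at least 4-fold. A test against a 2-fold change, which asks for more, called 5730 genes, 2350 higher in liver and 3380 higher in kidney. Of all calls 45.6% were higher in liver with DESeq2 and 41% with the test against 2-fold. Leaving out 1 library at a time gave 9430 to 9760 calls, 4357 to 4545 higher in liver and 4943 to 5254 higher in kidney, and 1539 to 1631 and 2776 to 3136 at 4-fold. In CCNE-TA it gave 5183 to 6535 calls, 2154 to 2763 higher in liver and 2984 to 3772 higher in kidney. With the replicate block 9970 genes were called in the controls. Of the genes named, Lcn2 (adjusted p = 0.0911) and Ccne2 (0.0742) were not called with it. Same-numbered libraries of the controls had deviations correlated at 0.118, -0.0609 and 0.189 across genes, against -0.202 to 0.116 for different numbers. Number 2 is no pair by the sex genes, and these values do not settle numbers 1 and 3. In CCNE-TA the block gave 7156 calls. Sex was unevenly split between the tissues, and 3 libraries per tissue with values down to a few counts limit what can be said of genes under about 1 CPM.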
